A study of Mus musculus with 8 samples.

Results

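CD30, encoded by Tnfrsf8, and its ligand CD30L, encoded by Tnfsf8, were followed in single cells of MC38 mouse colon carcinoma tumors. The pair is 2 of the 24787 genes listed, chosen by name as rows of the deposited tables with their differences between treatments in these same tumors already known, so every comparison of their levels between treatments below is a description without a test. C57BL/6 mice with syngeneic MC38 tumors had received saline (3 tumors), free R848 (3 tumors) or medium R848-BPDs (2 tumors), and tumors were dissociated 24 h later. R848 is a small-molecule agonist of Toll-like receptors 7 and 8, and medium R848-BPDs are bottlebrush prodrugs that release it through a cleavable (MPE) linker of intermediate rate. CD45+ and CD45- cells of each mouse were loaded at 9 to 1 onto Seq-Well arrays, which tag transcripts with unique molecular identifiers (UMIs) so that copies of 1 transcript are not counted again, and class proportions reflect this loading and not the tumor. MC38 is a transplanted cell line, and the labels name no engineered allele.

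CD30 is a receptor of the TNF receptor family. It is known from Hodgkin and anaplastic large cell lymphomas and is otherwise found on activated T, NK and B cells and on regulatory T cells. It has no enzymatic domain and signals through TRAF adaptor proteins to both branches of the NF-kB pathway. CD30L is a membrane protein of the TNF family carried by activated T cells and by myeloid cells, so that receptor and ligand usually meet between neighbouring cells, and AP-1 factors such as JunB are known to act on the CD30 promoter.

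Both genes lie on the minus strand of mouse chromosome 4, 81405790 bases apart. In GRCm38 (GENCODE vM21), Tnfsf8 (ENSMUSG00000028362.2) spans chr4:63831308-63861347 with 4 exons. Tnfrsf8 (ENSMUSG00000028602.12) spans chr4:145267137-145315164 with 13 exons in its longest transcript. No other annotated gene overlaps either, so reads of a neighbour or an antisense gene do not enter their counts by position. The sequences before their annotated starts (RefSeq promoter windows, GRCm38, minus strand, written 5′ to 3′) are shown because the UMIs of the pair were spread differently over the cell classes here. Capitals mark a match to the AP-1 motif TGANTCA, which reads the same on both strands. The Tnfrsf8 window is chr4:145315165-145315414 and the Tnfsf8 window, shortened to the bases before the GENCODE start, is chr4:63861348-63861534.
Tnfrsf8: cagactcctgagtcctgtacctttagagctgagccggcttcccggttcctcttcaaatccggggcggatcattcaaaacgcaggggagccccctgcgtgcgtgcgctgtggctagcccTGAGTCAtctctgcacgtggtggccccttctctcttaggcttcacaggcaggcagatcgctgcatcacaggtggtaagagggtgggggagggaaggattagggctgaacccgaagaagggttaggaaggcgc
Tnfsf8: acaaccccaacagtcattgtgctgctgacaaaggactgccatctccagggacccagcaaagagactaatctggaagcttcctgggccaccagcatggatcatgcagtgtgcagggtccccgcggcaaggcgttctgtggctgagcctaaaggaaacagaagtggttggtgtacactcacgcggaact
The Tnfrsf8 window held 1 AP-1 match, beginning 132 bases before the start, a motif found in 6.75% of 32851 promoter windows of the same length. It also held 1 match to the NF-kB consensus, beginning 168 bases before the start, where 3.9% of windows hold one. The 187 bases of Tnfsf8 held neither, against 5.14% and 2.92% of windows of that length. Both strands were searched, and a match is a description of the letters only.

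Of 10791 barcodes, 9886 passed the limits on genes, UMIs and mitochondrial share, with median depths of 3247 to 6928 UMIs per cell and 5867590 to 12422614 UMIs per tumor. Unsupervised clusters named by markers gave NK-like (44 to 208 cells a tumor), T-like (59 to 138), monocyte/macrophage-like (477 to 941), DC-like (26 to 163) and MC38-like cells (94 to 454). Each class carried its own markers, but T-like cells also held macrophage marker RNA in every tumor, at a summed 1510 to 11883 CPM (UMIs of a gene per 1000000 UMIs of the class), as did DC-like cells at 1240 to 5567 CPM. Across libraries, 11 barcodes were shared among kept cells. They touched 3 of 178 cells with a Tnfrsf8 UMI and 3 of 898 with a Tnfsf8 UMI. Levels are given as CPM of the UMIs summed over the cells of a class in a tumor. With summed RNA, fewer expressing cells and less RNA per cell cannot be told apart. The share of cells with at least 1 UMI is given beside the CPM, but it too depends on RNA per cell.

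The receptor was a lymphocyte gene in these tumors. Of 307 Tnfrsf8 UMIs, 165 lay in NK-like cells and 76 in T-like cells, although these classes made up 9.88% and 6.74% of the cells. Monocyte/macrophage-like cells, 53% of all cells, held 39 UMIs, DC-like cells 18 and MC38-like cells 5. Of the 165 NK-like UMIs, 130 came from the medium R848-BPD tumors. NK-like and T-like cells held 18 and 22 of 54 Tnfrsf8 UMIs after saline, and 17 and 19 of 57 after free R848. The ligand was spread more widely. Of 1354 Tnfsf8 UMIs, 755 lay in monocyte/macrophage-like cells, 257 in T-like cells, 144 in NK-like cells, 83 in DC-like cells and 68 in a small osteoclast-like group. MC38-like cells, taken as a class not known for either gene, had the following level for comparison: 5 of 1643 cells (0.304%) had a Tnfrsf8 UMI and 17 (1.03%) a Tnfsf8 UMI, at a median depth of 11877 UMIs.

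NK-like cells carried far more Tnfrsf8 after medium R848-BPDs than in any other tumor. The gene stood at 61 and 63.7 CPM in the 2 medium R848-BPD tumors, at 4.29, 11.7 and 6.24 CPM in the free R848 tumors and at 8.43, 5.71 and 3.68 CPM in the saline tumors. Both prodrug tumors lay above all 6 others, which overlapped with each other. Among the 8515 genes tested in this class, 13.9% likewise had medium R848-BPD tumors all above the free R848 tumors, and 13.9% all above the saline tumors. The rule behind the choice of the gene used these contrasts, so nothing is read from that comparison. On the log2 scale the fitted difference was 3.02 ± 0.39 (SE) against free R848 and 3.27 ± 0.38 against saline (n = 2 and 3 tumors).

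Tnfrsf8 was detected in more NK-like cells after medium R848-BPDs, and not only in a few very rich ones. More expressing cells and more RNA per cell can each raise the share of cells with a UMI and were not told apart. After medium R848-BPDs, 54 of 208 and 11 of 44 NK-like cells had a Tnfrsf8 UMI (26% and 25%). The shares were 3.3%, 4.1% and 1.64% after free R848 and 4.97%, 2% and 1.58% after saline. The NK-like cells of the 3 groups had median depths of 7120, 6654 and 5204 UMIs in that order. In the first prodrug tumor 27 of the 54 cells had at least 2 UMIs, and without its richest cell (12 UMIs) 103 of 115 UMIs remained. In the second prodrug tumor 3 of the 11 cells had at least 2 UMIs. When each cell was thinned to 1000 UMIs, to remove depth, the shares were 6.25% and 9.09% after medium R848-BPDs and between 0% and 1.64% in the other 6 tumors. Restricting the class to cells with a UMI of the NK genes Ncr1 or Klrb1c and none of Cd3d, Cd3e or Cd3g, a limit chosen after the data had been seen, left 60.6 and 52.3 CPM after medium R848-BPDs and at most 7.99 CPM in any other tumor.

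All 3 NK-like clusters had the most Tnfrsf8 after medium R848-BPDs when the cells of a treatment were summed. In the cluster led by the granzyme genes Gzmg, Gzmf and Gzmd, Tnfrsf8 stood at 60 CPM after medium R848-BPDs, 6.21 after free R848 and 9.17 after saline. In the cluster led by Xcl1 and mitotic genes (Nusap1, Cenpf, Top2a) the values were 46.7, 11.3 and 6.91 CPM. In the cluster led by Gzmc, Gzme and Ncr1 they were 93.3, 5.05 and 1.47 CPM. These last values rest on few counts: 30 UMIs in 9 of 31 cells, 3 in 1 of 66 and 1 in 1 of 95. In the first cluster the counts were 72 UMIs in 40 of 160 cells, 6 in 3 of 140 and 9 in 4 of 213. In the second they were 28 UMIs in 16 of 61 cells, 8 in 5 of 68 and 8 in 8 of 143. Genes given in the study's tables and in the lists used here were left out of the clustering. Marker RNA of other cells in NK-like cells differed for neutrophils, whose 10 markers summed to 141 to 170 CPM after medium R848-BPDs, 33.3 to 42 after free R848 and 28.4 to 67.5 after saline. Summed T cell markers (12 genes) overlapped across groups, at 594 to 609, 455 to 786 and 527 to 676 CPM. The 12 NK markers themselves summed to 12201 to 17113, 8200 to 9617 and 5292 to 7344 CPM. The part of these differences in the Tnfrsf8 values was not tested.

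**Figure D1:**
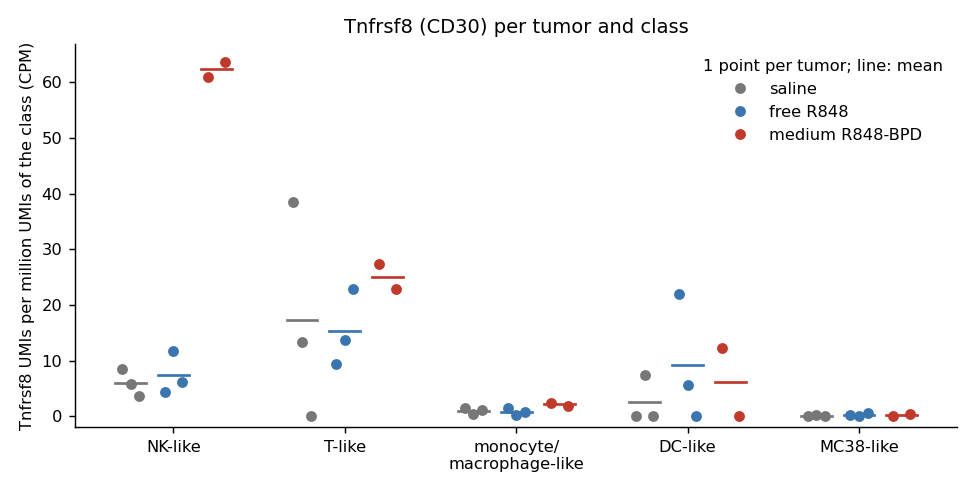
Tnfrsf8 CPM (vertical axis, UMIs per 1000000 UMIs of the class) in each class (horizontal axis), with 1 point per tumor colored by treatment and a line at the group mean. The medium R848-BPD tumors stand at 61 and 63.7 CPM in NK-like cells, where no other tumor passes 11.7 CPM, while T-like tumors of the 3 groups overlap.

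In T-like cells, Tnfrsf8 was present in all groups, and by CPM the groups overlapped. The gene stood at 27.4 and 22.81 CPM after medium R848-BPDs and at 9.36, 13.7 and 22.83 CPM after free R848. After saline it stood at 38.5, 13.4 and 0 CPM, both the highest and the lowest value. Cells with a UMI made up 7.97% and 10.2%, 3.9% to 5.88% and 0% to 9.59% in that order of groups. Medium R848-BPD and free R848 tumors did not overlap by this share. Thinned to 1000 UMIs per cell, the shares were 2.17% and 3.39%, 0% to 3.9% and 0% to 4.11%, and all groups overlapped. In cells with a Cd3d, Cd3e or Cd3g UMI, a limit set after the data had been seen, CPM were 27.2 and 27.2, 10.4 to 24.2 and 0 to 53.5. Fitted log2 differences were 0.86 ± 0.72 (SE) against free R848 and 0.43 ± 0.71 against saline, within the spread between tumors. The saline tumor at 0 had 83 T-like cells and the lowest median depth (2714 UMIs), and a count of 0 in it allows up to 3 UMIs.

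Within the T-like cells, the receptor went with Foxp3, the factor that defines regulatory T cells. Over all tumors 15 of 38 cells with a Foxp3 UMI and none of Cd8a or Cd8b1 had a Tnfrsf8 UMI (39.5%, exact 95% interval 24% to 56.6%), against 12 of 286 cells with a Cd8a or Cd8b1 UMI and no Foxp3 (4.2%, 2.19% to 7.21%). Intervals cover counting error only, since cells of a tumor are not replicates. The Foxp3 cells with a Tnfrsf8 UMI numbered 6 of 17 after saline, 5 of 13 after free R848 and 4 of 8 after medium R848-BPDs, and 6 of the 8 tumors contributed at least 1. The ligand was nearly absent there: 1 of the 38 Foxp3 cells had a Tnfsf8 UMI (2.63%, 0.0666% to 13.8%), against 56 of 286 Cd8 cells (19.6%, 15.1% to 24.7%) and 9 of 30 cells with Cd4 alone (30%, 14.7% to 49.4%). T-like cells with none of these genes held 19 of the 76 receptor and 89 of the 257 ligand UMIs. Of these 19 receptor UMIs, 18 were counted after medium R848-BPDs, in 6 of 111 cells. The Foxp3 cells of that group held 9 and its Cd8 cells 7 of its 35 T-like receptor UMIs. Summed NK markers of T-like cells are given by group below, and their part in these UMIs was not tested.

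**Figure D2:**
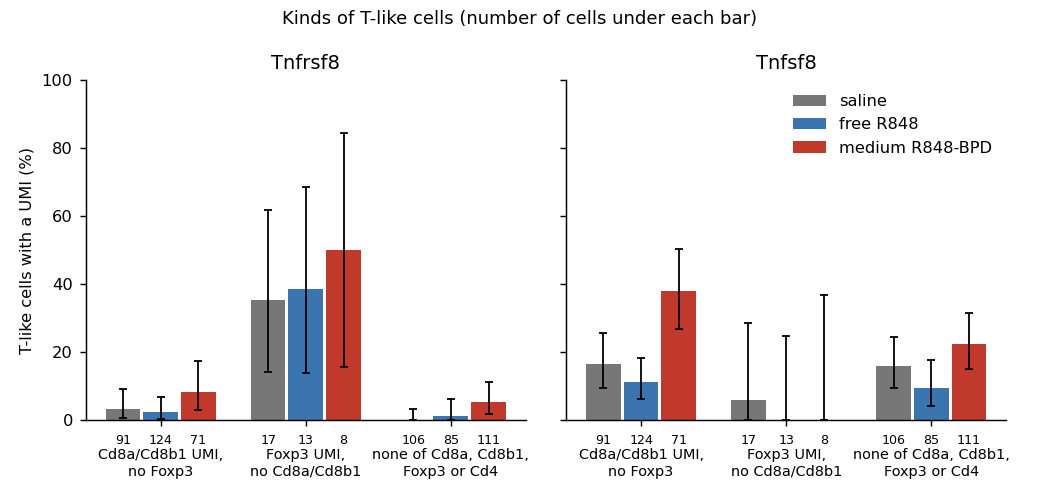
Percentage of T-like cells with a UMI of Tnfrsf8 (left) and Tnfsf8 (right), by the other transcripts detected in the cell and by treatment, with exact 95% binomial intervals and the number of cells (tumors pooled) under each bar. Tnfrsf8 is found in 35.3% to 50% of Foxp3 cells in each group. For Tnfsf8 the pooled share of Cd8 cells is 38% (medium R848-BPDs), 11.3% (free R848) and 16.5% (saline). Intervals cover counting error only and leave out the spread between tumors. Taken singly, the prodrug tumors reach 41.8% and 25% of Cd8 cells. Free R848 tumors reach 9.52%, 17.6% and 7.41%, and saline tumors 40%, 4.76% and 17.2%. Saline tumor 1 thus lies between the prodrug tumors.

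By CPM, the ligand in T-like cells separated medium R848-BPDs from free R848 but not from saline. Tnfsf8 stood at 120.7 and 108.3 CPM after medium R848-BPDs and at 15.6, 29.7 and 26.1 CPM after free R848, so these groups did not overlap (10.6% of 7287 genes tested had medium R848-BPD tumors all above free R848 tumors). The saline tumors spread from 110.4 over 79.5 to 11.5 CPM, and the highest of them lay between the prodrug tumors. Shares of cells with a UMI were 30.4% and 23.7% after medium R848-BPDs, 7.78%, 13% and 8.82% after free R848, and 24.7%, 7.69% and 16.9% after saline, at group median depths of 5553, 4913 and 4274 UMIs. Fitted log2 differences were 2.36 ± 0.6 (SE) against free R848 and 0.84 ± 0.54 against saline. The second one rested on single saline tumors, being 1.59 without saline tumor 1 and 0.25 without saline tumor 2.

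After medium R848-BPDs, cells with Cd8a or Cd8b1 held 88 of the 157 T-like Tnfsf8 UMIs, cells with none of Cd8a, Cd8b1, Foxp3 and Cd4 53, cells with Cd4 alone 9 and 1 cell with both Foxp3 and Cd8 transcripts 7. In the Cd8 cells Tnfsf8 stood at 165.7 and 195.9 CPM after medium R848-BPDs, from 23 of 55 and 4 of 16 cells. It stood at 19.5, 39.3 and 13.4 CPM after free R848 and at 153.8, 7.11 and 55.9 CPM after saline, so saline tumor 1 again approached the prodrug tumors. Up to 11 Tnfsf8 UMIs were counted in 1 T-like cell after medium R848-BPDs and up to 12 in saline tumor 1, against at most 3 after free R848. NK markers (12 genes) summed to 2186 to 3818 CPM in T-like cells after medium R848-BPDs, 880.5 to 2269 after free R848 and 1356 to 1876 after saline, and osteoclast markers (7 genes) to 339.8 to 461.9, 130.4 to 159.7 and 84.8 to 202.5 CPM. The part of either was not tested. Macrophage markers (11 genes) summed to 2562 to 5959 CPM in T-like cells after medium R848-BPDs, 1510 to 4270 after free R848 and 2848 to 11883 after saline. Keeping only T-like cells with a Cd3d, Cd3e or Cd3g UMI and at most 1 UMI of the macrophage genes C1qa, C1qb and C1qc, again a limit set after the data had been seen, left 127 and 158.7 CPM after medium R848-BPDs, 20.5, 30.7 and 26.4 CPM after free R848, and 149, 12.9 and 61.8 CPM after saline.

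In monocyte/macrophage-like cells the ligand differed in the opposite direction between medium R848-BPDs and free R848. Tnfsf8 stood at 4.91 and 3.05 CPM after medium R848-BPDs, at 17.3, 39.4 and 21 CPM after free R848 and at 33.2, 32.7 and 28.9 CPM after saline. Both prodrug tumors lay below all 6 others, while free R848 and saline tumors overlapped. Of the 10538 genes tested in this class, 20.6% had medium R848-BPD tumors all below free R848 tumors and 20.6% all below saline tumors. Cells with a UMI numbered 27 of 1191 after medium R848-BPDs (2.27%), 224 of 1714 after free R848 (13.1%) and 302 of 2336 after saline (12.9%), at similar median depths of 5302, 5215 and 4879 UMIs. MC38-like cells of the prodrug tumors gave 3 of 603 (0.498%) at a median of 10935 UMIs. The fitted log2 differences were -2.6 ± 0.39 (SE) against free R848 and -2.89 ± 0.39 against saline.

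Most macrophage states had the least Tnfsf8 after medium R848-BPDs. Of 10 monocyte/macrophage-like clusters, 10 had less Tnfsf8 after medium R848-BPDs than after saline and 9 less than after free R848. The 7 clusters with at least 50 medium R848-BPD cells were lower than both. In cluster 0, led by the interferon-induced genes Cmpk2, Rsad2 and Ifit3, Tnfsf8 stood at 3.48 CPM (5 of 237 cells) after medium R848-BPDs, 49.2 CPM (85 of 381) after free R848 and 87 CPM (58 of 192) after saline. In cluster 4, led by Ch25h, Iigp1 and Cxcl9, the values were 7.09, 35.6 and 51.1 CPM. In cluster 5, led by Mmp12, Inhba and Arg1, they were 0.862, 5.79 and 29.3 CPM. Cells with a C1qa, C1qb or C1qc UMI and no UMI of Cd3d, Cd3e, Cd3g, Ncr1 or Klrb1c gave 5.24 and 2.65 CPM after medium R848-BPDs and 20.2 to 40.7 CPM in the other tumors. Markers of osteoclasts (7 genes) summed to 917.1 to 1247 CPM after medium R848-BPDs, 548 to 618.4 after free R848 and 128.1 to 463.7 after saline in this class, and their part was not tested.

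**Figure D3:**
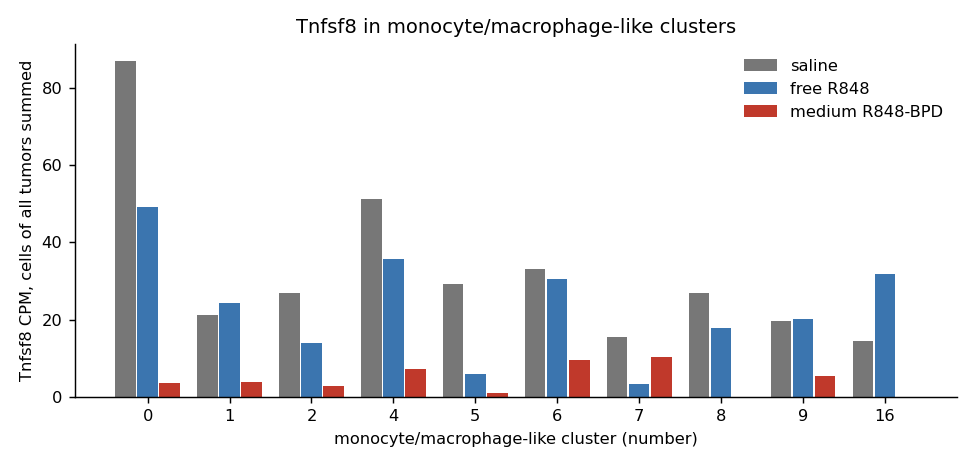
Tnfsf8 CPM (vertical axis) in each of the 10 monocyte/macrophage-like clusters (horizontal axis, cluster number), with cells of all tumors of a treatment summed, so bars have no tumor error. The medium R848-BPD bar is below the saline bar in all 10 clusters and below the free R848 bar in 9. The exception is cluster 7 with 21 medium R848-BPD cells.

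By CPM the ligand was also lowest after medium R848-BPDs in NK-like cells, and in DC-like cells it was below saline but not below free R848. In NK-like cells Tnfsf8 stood at 7.96 and 12.7 CPM after medium R848-BPDs, at 19.3, 29.2 and 18.7 CPM after free R848 and at 28.4, 28.6 and 20.9 CPM after saline. The prodrug tumors lay below all others, as they did for 14% of genes against free R848 and 12.6% against saline, with fitted log2 differences of -1.38 ± 0.42 and -1.57 ± 0.4 (SE). Without medium R848-BPD tumor 1 these were -0.84 and -1.03. After medium R848-BPDs 18 UMIs were counted, in 5.77% and 4.55% of NK-like cells. The shares were 9.84% to 14.8% after free R848 and 6.84% to 16.1% after saline. Thinned to 1000 UMIs per cell the groups overlapped, at 1.44% and 2.27%, 1.1% to 5.74% and 1% to 3.17%. In DC-like cells Tnfsf8 stood at 12.3 and 12.2 CPM after medium R848-BPDs, within the 3.65, 19.7 and 28.7 CPM of free R848 and below the 36, 81.7 and 35.4 CPM of saline (20.5% of 5974 genes had the latter order). Shares of DC-like cells with a UMI were 2.9% to 5.74% after medium R848-BPDs, 2.17% to 12.9% after free R848 and 8.7% to 26.9% after saline. Thinned to 1000 UMIs per cell they overlapped, at 0% to 1.64%, 0% to 1.43% and 0.613% to 11.5%. The log2 differences in DC-like cells were -0.58 ± 0.68 and -1.83 ± 0.61. The first of these turned to 0.22 when a poor-quality cluster was kept. The DC-like class was made of different clusters in the groups: cluster 11, led by the migratory DC genes Fscn1, Ccl22 and Ccr7, held 163 of 191 cells after medium R848-BPDs, 119 of 192 after free R848 and 68 of 281 after saline. Within it Tnfsf8 stood at 11, 9.69 and 19.3 CPM in that order of groups.

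**Figure D4:**
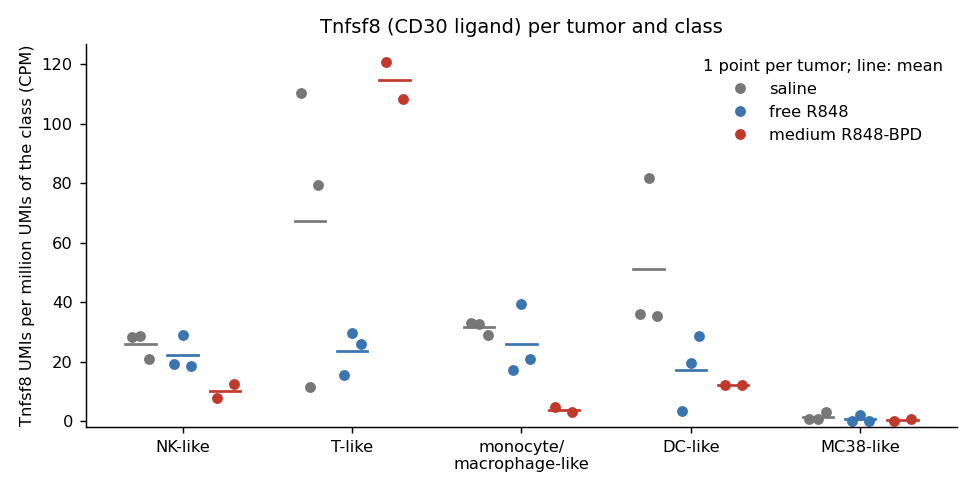
Tnfsf8 CPM (vertical axis, UMIs per 1000000 UMIs of the class) in each class (horizontal axis), with 1 point per tumor colored by treatment and a line at the group mean. Medium R848-BPD tumors are the lowest in monocyte/macrophage-like and NK-like cells (3.05 to 12.7 CPM) and stand at 108.3 and 120.7 CPM in T-like cells, where saline tumors range from 11.5 to 110.4 CPM.

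Tnfrsf8 was scarce in myeloid cells under every treatment. In monocyte/macrophage-like cells it stood at 2.37 and 1.91 CPM after medium R848-BPDs, at 0.233 to 1.49 CPM after free R848 and at 0.462 to 1.45 CPM after saline. These values come from 18, 9 and 12 UMIs and the gene did not pass the filter on low counts. In DC-like cells 18 UMIs came from 6 cells in 4 tumors, of which 1 cell held 6 UMIs, and the other 4 tumors had none. In the osteoclast-like group, which reached 10 cells in 2 tumors only, Tnfsf8 was found in 14 of 76 cells of saline tumor 3 (59.9 CPM) and 8 of 44 cells of free R848 tumor 2 (40.8 CPM). Receptor and ligand were each found in a minority of cells. After medium R848-BPDs, 65 of 252 NK-like cells had a receptor UMI and 14 a ligand UMI, as had 17 and 56 of 197 T-like cells. At such detection, counts of cells with both do not show whether the genes keep to separate cells. Both were detected in 2 of 252 NK-like and 3 of 197 T-like cells after medium R848-BPDs and in none of the NK-like or T-like cells of the other tumors (0 of 451 and 0 of 274 NK-like, 0 of 234 and 0 of 235 T-like cells after saline and free R848).

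Genes of CD30 signalling, the TNF families and lymphocyte activation were then compared in each class, with tests across all genes (edgeR quasi-likelihood, Benjamini-Hochberg adjustment, threshold 0.05). These lists were chosen with earlier results of these data known. Their call rates are therefore given beside those of all genes as a description, and no enrichment is read from them in any class. In NK-like cells 4 of 78 listed genes that could be tested were called between medium R848-BPDs and free R848 (5.13%, against 0.352% of all 8515 genes). The count was 2 without free R848 tumor 2 or medium R848-BPD tumor 2, and 1 without free R848 tumor 3. Traf1, an adaptor that binds CD30 and is itself an NF-kB target, rose: it stood at 504.5 and 564.6 CPM after medium R848-BPDs, 277 to 318.3 CPM after free R848 and 248.4 to 317.1 CPM after saline (log2 change 0.83 ± 0.16 SE, edgeR adjusted p = 0.0293). It was the only 1 of 27 tested genes of the CD30 signalling and NF-kB list to pass. The list's median log2 change was 0.20 (all genes -0.01), and Traf2, Traf3 and Traf6, for example, had log2 changes of -0.14, 0.54 and -0.07. The cytotoxic genes Gzmb, a serine protease of the granules, and Prf1, the pore-forming protein, rose by 1.01 ± 0.15 and 0.80 ± 0.16 on the log2 scale (edgeR adjusted p = 0.00348 and 0.041). Xcl1, a chemokine that draws cross-presenting DCs, fell by 2.71 ± 0.32, from 300.6 to 495 CPM after free R848 to 66.3 and 46.7 CPM (edgeR adjusted p = 0.000425).

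Against saline, 7 of the 78 genes were called in NK-like cells (8.97%, against 0.951% of all genes). These were the 4 above in the same direction together with Ctla4, Il12rb1 and Icos, which rose by 2.29 ± 0.32, 1.37 ± 0.19 and 0.90 ± 0.18 on the log2 scale (edgeR adjusted p = 0.000749, 0.000731 and 0.0197). Ctla4 is an inhibitory and Icos a costimulatory receptor, and Il12rb1 is part of the receptor for interleukin 12. Of the 9 tested TNF receptor genes and the 8 TNF ligand genes, 0 were called in either comparison (edgeR), with 2 or 3 of each at an unadjusted p under 0.05. Tnfrsf9, Tnfrsf1b and Tnfrsf1a had log2 changes of 0.40, 0.10 and -0.18 against free R848.

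**Figure D5:**
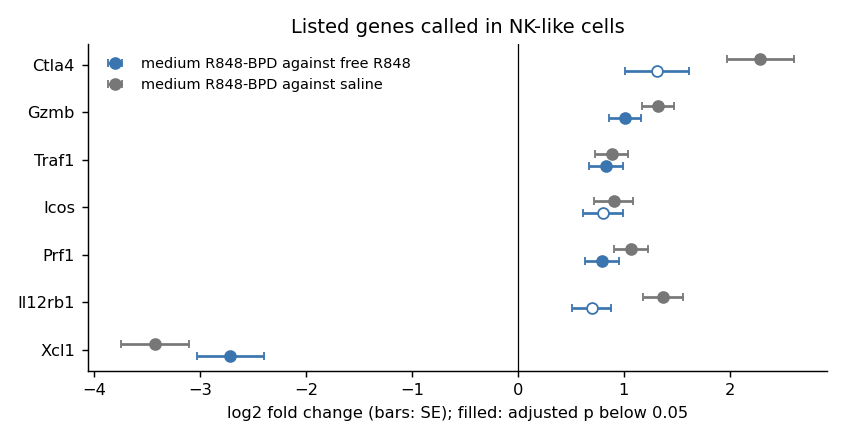
Log2 fold changes (horizontal axis, bars are SE) of the listed genes called in NK-like cells (vertical axis), for medium R848-BPDs against free R848 and against saline. Filled points passed the threshold. Traf1, Gzmb, Prf1 and Xcl1 passed in both, and Ctla4, Icos and Il12rb1 against saline.

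In T-like cells 0 of 83 listed genes were called in either comparison by edgeR, with 16 at an unadjusted p under 0.05 against free R848 and 12 against saline. DESeq2 called 1 in each. Background calls were rare too, at 0.0961% and 0.165% of 7287 genes. Tnfrsf4, the OX40 receptor, had log2 changes of -1.71 ± 0.4 and -1.31 ± 0.4 (edgeR adjusted p = 0.222 and 0.441), and Traf1 of 0.54 ± 0.22 and 0.41 ± 0.22. The median log2 changes of the 13 tested TNF receptor genes were 0.59 and 0.02, and those of the 9 TNF ligand genes were -0.10 and -0.57.

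In monocyte/macrophage-like cells, where the ligand was low after the prodrug, 3 of 75 listed genes were called against free R848 (4%, against 1.75% of all genes) and 9 against saline (12%, against 7.49%). The first count was 0 when any of the 5 tumors compared was left out and 9 without saline tumor 2. The second was 1 without medium R848-BPD tumor 2 and 23 without saline tumor 2. Batf, an AP-1 family factor, rose in both comparisons: 85.5 and 66 CPM after medium R848-BPDs, 40.4 to 52.5 after free R848 and 27.4 to 32.5 after saline (log2 changes 0.72 ± 0.14 and 1.41 ± 0.14, edgeR adjusted p = 0.0359 and 0.00162). Havcr2 (the TIM-3 receptor) and Il21r fell by 1.14 ± 0.17 and 1.13 ± 0.2 against free R848 (edgeR adjusted p = 0.0191 and 0.0311). They also fell against saline, by 1.04 and 1.36, as did the NF-kB subunit Rel (by 1.26) and Myc (by 0.96). Of the 7 tested genes of the TNF ligand list 0 were called by edgeR in either comparison, with 1 and 4 at an unadjusted p under 0.05. Tnf, Tnfsf9 and Tnfsf10 had log2 changes of -1.42 ± 0.44, -2.29 ± 0.6 and -0.03 ± 0.29 against saline (edgeR adjusted p = 0.0871, 0.0513 and 0.961).

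DC-like cells held most of the calls. Against saline 29 of 65 listed genes were called (44.6%; 26 rose and 3 fell), where 14.1% of all 5974 genes were called, with 7.82% of all genes called higher. The count was 14 without medium R848-BPD tumor 1 and 15 without saline tumor 1. Against free R848 2 were called, Tnfrsf9 (the costimulatory receptor 4-1BB) and Batf, where 1% of all genes were. This count was 0 without free R848 tumor 2 or 3 or either prodrug tumor, 1 without saline tumor 1 or 3, and 9 without free R848 tumor 1. Tnfrsf9 stood at 764 and 774.7 CPM after medium R848-BPDs, 212.1 to 342.8 after free R848 and 109.3 to 258.6 after saline (log2 changes 1.38 ± 0.29 and 2.19 ± 0.31, edgeR adjusted p = 0.0325 and 0.000409). Of 27 tested genes of the CD30 signalling and NF-kB list, 10 rose against saline and 1 (Mapk14) fell. Those that rose, named after their values had been seen, were the adaptors Traf1, Traf2 and Traf3, the NF-kB subunit Nfkb2, the inhibitors Nfkbia and Nfkbib, the kinase Ikbkb, the survival genes Birc2 and Cflar, and Batf. Of 21 tested lymphocyte activation genes 10 rose, of which Gzmb, Prf1, Pdcd1, Il2rb and Il12rb2 changed most (log2 changes of 3.74, 3.46, 2.77, 2.46 and 2.44). Gzmb, Prf1 and Il2rb are genes of cytotoxic lymphocytes. In DC-like cells the 12 T cell markers summed to 258.2 to 281 CPM after medium R848-BPDs, 48.7 to 442.1 after free R848 and 60.2 to 191.8 after saline, and the 12 NK markers to 356.1 to 865.8, 382.1 to 409.2 and 302.2 to 519.6 CPM. The 7 osteoclast markers summed to 375.2 to 486.1, 73.1 to 140.5 and 116.2 to 155.9 CPM. The 10 neutrophil markers summed to 384.7 to 528.6, 83.1 to 168.6 and 202 to 348.9 CPM. Their part in these changes, and that of the larger share of cluster 11, was not tested.

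NK-like cells with a Tnfrsf8 UMI were compared with those without in the 2 medium R848-BPD tumors, the only ones with 10 or more of each (54 and 154 cells, 11 and 33 cells), with the tumor as a block and Tnfrsf8 left out. Of 6329 genes 38 were called (0.6%), 28 higher and 10 lower in the positive cells. Of the 6 granzyme genes examined, Gzmg, Gzmd and Gzmf were called (named after their values were seen, except Gzmg). Gzmg averaged 6995 CPM in positive and 1074 CPM in negative cells (log2 difference 2.66 ± 0.2 SE, edgeR adjusted p = 6.88e-35) and was detected in 72.3% of positive and 38.5% of negative cells. Gzmd and Gzmf had log2 differences of 1.07 ± 0.2 and 0.85 ± 0.18, while Gzmb (12914 and 13455 CPM), Gzma and Gzme had -0.08, 0.24 and 0.51 and were not called. The positive cells were deeper, with medians of 8800 against 7164 UMIs in the first tumor and 5218 against 4672 in the second, and the shares of cells given here were not adjusted for this. Mcpt8, a serine protease known from basophils, was found in 13 of 65 positive and 4 of 187 negative cells (log2 difference 4.31 ± 0.61, edgeR adjusted p = 1.26e-09). Batf3, an AP-1 family factor, was found in 30.8% of positive and 5.88% of negative cells (2.22 ± 0.53, edgeR adjusted p = 0.00712), and Tmem119 in 21.5% and 8.02%. Among the 10 lower genes, Saa3, an acute-phase gene, averaged 66.4 CPM in positive and 391 CPM in negative cells (-2.77 ± 0.27, edgeR adjusted p = 7.64e-21) and Tmem176b 3.95 and 45.3 CPM (-2.59 ± 0.71, edgeR adjusted p = 0.0451). Saa3 was nevertheless detected in similar shares, 40% of positive and 37.4% of negative cells. Tmem176b was detected in 6.15% and 10.7%. Havcr2 of the lymphocyte activation list, named after its value was seen, was higher in positive cells (0.98 ± 0.25, edgeR adjusted p = 0.0171). The myeloid genes S100a8, S100a9, Cxcl2, Irg1 and Il1b were also called, but 71.4% to 84.9% of their UMIs in positive cells came from 1 cell, and Thbs1 had 46.1% from 1 cell. In all, 9 of the 28 higher genes took over 50% of these UMIs from 1 cell. With 2 tumors the fit has few degrees of freedom, so its p-values, however small, say little about the spread between tumors. DESeq2 called 6 genes: Gzmd, Saa3, Il1b, S100a8, S100a9 and Thbs1. Gzmg was not among them.

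T-like cells with a Tnfsf8 UMI were compared with those without in the 5 tumors with 10 or more of each. No gene was called by edgeR or by DESeq2 (0 of 4568 tested, with 216 at an unadjusted p under 0.05 in edgeR). Without the filter on low counts edgeR called 32. The smallest p belonged to Tnfrsf4, which averaged 36.2 CPM in positive and 159.5 CPM in negative cells and was lower in 5 of 5 tumors (log2 difference -1.94 ± 0.34, edgeR adjusted p = 0.115). Clec4n, a myeloid lectin, had the next p (162.8 and 64.9 CPM, higher in 5 of 5 tumors, edgeR adjusted p = 0.301). The macrophage genes C1qa (711.5 and 404.4 CPM, higher in 4 of 5) and C1qc (407.9 and 264.5 CPM, higher in 5 of 5) were not called either, at edgeR adjusted p = 0.645 and 0.927. These 4 genes are named after their values were seen, and the part of macrophage RNA was not tested.

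Across the 32 values formed by the 8 tumors and 4 classes, the genes whose summed log2 CPM went most closely with Tnfrsf8, among 7013 genes averaging 4 or more on that scale, were Erc1 (Pearson r = 0.78), Rbm5 (0.77), Add1 (0.75), Supt5 (0.75) and Tecpr1 (0.74). For Tnfsf8 they were Lin54 (0.69), Arhgap15 (0.69), Fosl2 (0.68), Cldn25 (0.66) and Zfp326 (0.64). These values describe likeness only, since classes of a tumor share a library and its depth.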

How the data were processed

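Single-cell RNA libraries of 8 MC38 tumors were analysed. For each tumor the authors deposited a table of UMI counts by gene and barcode, not normalized, from reads aligned to mm10 (GRCm38) and demultiplexed with bcl2fastq. The aligner and gene annotation are not given in the sources used here. Members, lists and comparisons were chosen with earlier results of these data known. Barcodes were kept between 400 and 10000 genes (both excluded), below 50000 UMIs and up to 15% mitochondrial UMIs. Clustering used R 4.3.3 and Seurat 5.3.0 (30 and, for 7873 nonmalignant cells, 11 principal components, resolutions 0.8 and 1.3), leaving 1065 listed genes out of the second clustering, and clusters were named by marker lists. A cluster of 370 poor-quality cells was removed by a rule set after output had been seen. Doublets (67, Scrublet) were kept.

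Counts were summed per tumor and class (at least 10 cells) and tested with edgeR 4.0.16 (filterByExpr, TMM, quasi-likelihood F test, all 3 groups in the fit, Benjamini-Hochberg). An SE is the fold change (log2) divided by the root of its F statistic. In simulated counts of medium R848-BPDs against free R848, 81% to 91% of 4-fold and 23% to 41% of 2-fold changes were recovered over the 4 classes. Tumors are taken as replicates from their labels, and p-values between treatments measure the spread between these tumors only. Those of Tnfrsf8-positive against -negative NK-like cells rest on 2 tumors and say little about that spread. Named genes are the 2 members, called list genes (at most 10 in NK-like and T-like and 5 in other classes), up to 3 uncalled genes per list, the 5 closest by Pearson r (prior count 2) and the 10 largest called differences (mean log2 CPM of at least 5) in positive cells, read as the largest upwards, with Saa3 and Tmem176b added after their values were seen, since they rank among the 10 by absolute size. Nothing in the labels pairs same-numbered tumors, and they were not paired in the main fit. Correlations of their deviations from the group means ranged from -0.25 to 0.21. With means of 2 or 3 tumors, these correlations cannot exclude a pairing. DESeq2 1.42.0 and the other alternatives are given at the end.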

Additional observations from a re-analysis of the deposited data

Results flagged for a closer look

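Tnfsf8 stood out because its difference had opposite signs in cell classes of the same tumors: between medium R848-BPDs and free R848 its log2 difference was 2.36 in T-like cells and -2.6 in monocyte/macrophage-like cells, and in both classes the tumors of the 2 groups did not overlap. The difference between the classes was not tested, since the gene was chosen with these contrasts known.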

How the results depend on the processing

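Beside the leave-one-out fits, 130 pairings of a result with an alternative setting were kept, 28 moved and 1 turned. Kept means, for a difference, the same direction and a shift smaller than its SE or SD. For a count of called genes it means an equal or similar count, 0 included. The differences in the share of positive cells (percentage points, thinned to 1000 UMIs) were larger without thinning: 22.5 against free R848 (7.12 thinned) and 22.6 against saline (7.46) for Tnfrsf8 in NK-like cells, and 17.2 (7.98; 10.8 thinned to 2000 UMIs) and 10.7 (5.4) for Tnfsf8 in T-like cells. The Tnfsf8 log2 difference against free R848 in DC-like cells turned from -0.58 to 0.22 with the poor-quality cluster kept. Among Tnfrsf8-positive NK-like cells DESeq2 called 6 genes (38 with edgeR), and among Tnfsf8-positive T-like cells edgeR called 32 without the filter (0 with it). Calling positive cells after thinning left 1 tumor for either gene, so that alternative could not be fitted.

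Counts of listed genes called without the filter on low counts, against free R848 and against saline, were 11 and 13 in NK-like (4 and 7 with it), 7 and 6 in T-like (0 and 0), and 17 and 32 in monocyte/macrophage-like cells (3 and 9), and 10 in DC-like cells against free R848 (2). DESeq2 called 1 and 1 in T-like cells, 5 and 14 in monocyte/macrophage-like cells and, against free R848, 1 in DC-like cells. With only the 2 groups compared in the fit, the counts were 8 in NK-like cells and 1 in DC-like cells against free R848, and 12 and 4 in monocyte/macrophage-like cells. Resolution 0.8 gave 2 in NK-like cells and keeping the poor-quality cluster gave 4 in DC-like cells, both against free R848. The causes were not tested.

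With the replicate number as a block the counts were 3 and 6 in NK-like, 1 and 1 in T-like, 2 and 8 in monocyte/macrophage-like and 0 and 24 in DC-like cells, and the log2 differences were 2.94 and 3.12 for Tnfrsf8 in NK-like and 2.47 and 1.03 for Tnfsf8 in T-like cells. Nothing in the labels pairs the tumors. The correlations given above were not all above 0.1, but they cannot exclude a pairing.

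Leaving out 1 tumor at a time, counts against free R848 ranged from 1 to 6 in NK-like, 0 to 1 in T-like, 0 to 9 in monocyte/macrophage-like and 0 to 9 in DC-like cells, and against saline from 5 to 8, 0 to 0, 1 to 23 and 14 to 33. Log2 differences ranged from 2.67 to 3.59 and 3.04 to 3.68 for Tnfrsf8 in NK-like cells, from 2.05 to 2.57 and 0.25 to 1.59 for Tnfsf8 in T-like cells, and from -2.99 to -2.17 and -3.27 to -2.69 for Tnfsf8 in monocyte/macrophage-like cells. Where a group kept 1 tumor, it is assumed to vary like the others. With 15 to 115 Tnfrsf8 UMIs in a prodrug tumor's NK-like cells and 3 to 11 in the others, depth limits any smaller difference.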
